A study of Mus musculus with 10 samples.

Results

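Calcium cycling genes of muscle were described across 5 tissues of adult female C57BL/6 mice: Atp2a1, Atp2a2, Ryr1, Casq1, Pvalb, Calm2 and Calm3. A probe set, the group of short oligonucleotides that reads 1 transcript on an Affymetrix array, was taken where its annotation gave a single gene symbol and that symbol was on the list. This gave 8 probe sets of 13057, for 6 of the 7 genes and out of 6137 named genes in all. Casq1 had no such probe set and was not analysed here. Atp2a2 was read on chip A and the other 5 genes on chip B, Pvalb by 3 probe sets and each of the others by 1. Total RNA of muscle, hypothalamus, pancreas, liver and white adipose tissue was hybridised once to each chip, which makes 10 arrays. The labels give no treatment, mutation or age in numbers and do not name the muscle. The adipose arrays are titled preconfluent although their source is given as white adipose, hence the name adipose-labelled sample. With 1 array per tissue and chip there was no replicate; no test was made, and precision is limited by how few arrays there are. In whole tissue, fewer cells of a type and less RNA per cell cannot be told apart.

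In skeletal muscle a contraction starts when the voltage sensor of the cell membrane opens the ryanodine receptor Ryr1, and calcium leaves the sarcoplasmic reticulum, the membrane store of the fibre. Calcium binds troponin C on the thin filament, and pumps of the SERCA family, encoded by the Atp2a genes, return it to the store, where calsequestrin (Casq1) holds it. Parvalbumin (Pvalb) soaks up calcium in the cytosol of fast fibres and is also known from a class of inhibitory neurons. Calmodulin, the general calcium sensor of animal cells, is made from several genes that encode the same protein, Calm2 and Calm3 among them.

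Promoter sequences are shown because the windows around the starts of the members differed in composition from gene to gene. Of the genes highest in hypothalamus only Calm3 had a window, so genes high in muscle and in hypothalamus are not compared as groups. The table of RefSeq promoters for the mouse assembly GRCm38.p6, with 250 bases before and 50 after each start, held 5 of the 7 genes: Atp2a1, Ryr1, Casq1, Pvalb and Calm3. Atp2a2 and Calm2 were not matched. Capitals mark each CG dinucleotide, the sites where mammalian DNA is methylated, and every window is on the minus strand, written 5′ to 3′. The Pvalb window is the more upstream of 2 starts.
Atp2a1, chr7:126463024-126463323: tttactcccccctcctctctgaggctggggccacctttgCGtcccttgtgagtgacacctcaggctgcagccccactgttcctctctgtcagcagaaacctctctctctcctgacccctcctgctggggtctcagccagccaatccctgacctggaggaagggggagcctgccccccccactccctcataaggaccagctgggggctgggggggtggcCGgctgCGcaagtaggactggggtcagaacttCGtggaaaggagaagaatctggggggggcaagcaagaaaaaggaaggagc
Ryr1, chr7:29125102-29125401: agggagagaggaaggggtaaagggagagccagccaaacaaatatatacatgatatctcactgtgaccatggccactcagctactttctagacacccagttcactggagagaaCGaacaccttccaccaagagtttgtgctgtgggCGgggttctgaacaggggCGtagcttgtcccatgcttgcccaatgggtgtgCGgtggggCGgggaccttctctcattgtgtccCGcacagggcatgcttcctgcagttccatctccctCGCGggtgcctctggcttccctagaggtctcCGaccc
Pvalb, chr15:78206351-78206650: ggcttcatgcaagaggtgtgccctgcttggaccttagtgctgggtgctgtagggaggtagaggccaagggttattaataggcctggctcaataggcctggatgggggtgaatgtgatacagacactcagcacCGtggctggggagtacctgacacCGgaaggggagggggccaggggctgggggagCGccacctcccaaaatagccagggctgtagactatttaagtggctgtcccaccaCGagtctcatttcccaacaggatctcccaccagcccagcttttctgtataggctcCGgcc
Calm3, chr7:16923983-16924282: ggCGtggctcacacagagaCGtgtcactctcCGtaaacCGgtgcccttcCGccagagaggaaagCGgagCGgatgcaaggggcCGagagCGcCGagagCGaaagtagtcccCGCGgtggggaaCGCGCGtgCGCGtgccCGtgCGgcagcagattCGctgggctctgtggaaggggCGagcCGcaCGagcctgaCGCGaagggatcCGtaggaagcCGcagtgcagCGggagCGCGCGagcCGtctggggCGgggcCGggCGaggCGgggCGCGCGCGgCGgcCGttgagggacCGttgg
The Atp2a1 window holds 4 CG dinucleotides, that of Pvalb 5 and that of Ryr1 9, against a median of 7 over 32851 windows. Calm3 holds 44, and 97.8% of the windows hold fewer. Its share of G and C is 72%, against 62.3% for Atp2a1, 58.3% for Pvalb and 56.7% for Ryr1, and a median of 52.7% over all windows. The other Pvalb start, at chr15:78204188-78204487, holds 25 CG dinucleotides, and that of Casq1 holds 4. The E-box letters CANNTG, searched on both strands, occur once in the Atp2a1 window, 55 bases before the start, 2 times in that of Casq1 and 2 times in that of the other Pvalb start. They occur in none of the Ryr1, upstream Pvalb and Calm3 windows, while 72.3% of all windows hold them. The letters GGGCGG occur 2 times in the Ryr1 window and once in those of Calm3 and Casq1, and 35.7% of all windows hold them. The MEF2 site, found in 0.557% of windows, and the CArG box, found in 1.63%, were matched in none of the 6 windows of the members. These matches describe letters in short windows and say nothing of binding.

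The arrays differed in noise, and this bears on every low value. The noise bound of an array was set from its own negative values, as the size of the 1st percentile of its intensities. On chip B, the chip of 5 members, hypothalamus had the lowest bound (649.5), followed by liver (792), the adipose-labelled sample (918), muscle (1640) and pancreas (2608). On chip A it ran from 258 in hypothalamus to 1065 in muscle and 1166 in pancreas. All values are scaled intensities, and a level is set against the level of the same probe set in other tissues; sums over a marker list and ranges over probe sets of 1 gene are descriptions. A fold is the value over the highest, among the tissues named, of the other value or its bound, with "at least" where a bound sets it. A gene was called for muscle where muscle exceeded each other tissue by a factor of 4 or more. For these calls and for log2 differences, low values were first raised to a floor, 175 for chip A and 123 for chip B. Markers were checked by tissue: 11 of 11 measured contractile genes of skeletal muscle were called for muscle, Ckm at 159172 among them, with a summed intensity of 699197 there and between 2655 and 5490 in the other 4 tissues. In hypothalamus 7 of 9 neuron genes were called, and in the adipose-labelled sample 7 of 7 white adipocyte genes. In the muscle arrays 0 of 6 acinar and 0 of 7 white adipocyte genes were above noise, while 1 of 9 neuron genes (Stmn3, 3137) and 2 of 7 hepatocyte genes (Alb, 8226, and Serpina1a, 2787) were. Above noise in muscle were also 2 of 5 smooth muscle genes and 1 of 4 brown adipocyte genes, Cox8b at 14643. Their part in the members' values was not tested.

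Of the 6 measured member genes 4 were called for muscle, Atp2a1, Atp2a2, Ryr1 and Pvalb, against 1.65% of the 6137 named genes. By probe set the count was 6 of 8, against 1.85% of 13057. No member was called for another tissue, against 2.33% of named genes for hypothalamus, 3.29% for pancreas, 2.79% for liver and 1.25% for the adipose-labelled sample. Calm2 and Calm3 had their highest value in hypothalamus. The members were proposed with results of these data known, so the shares are a description.

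**Figure D1:**
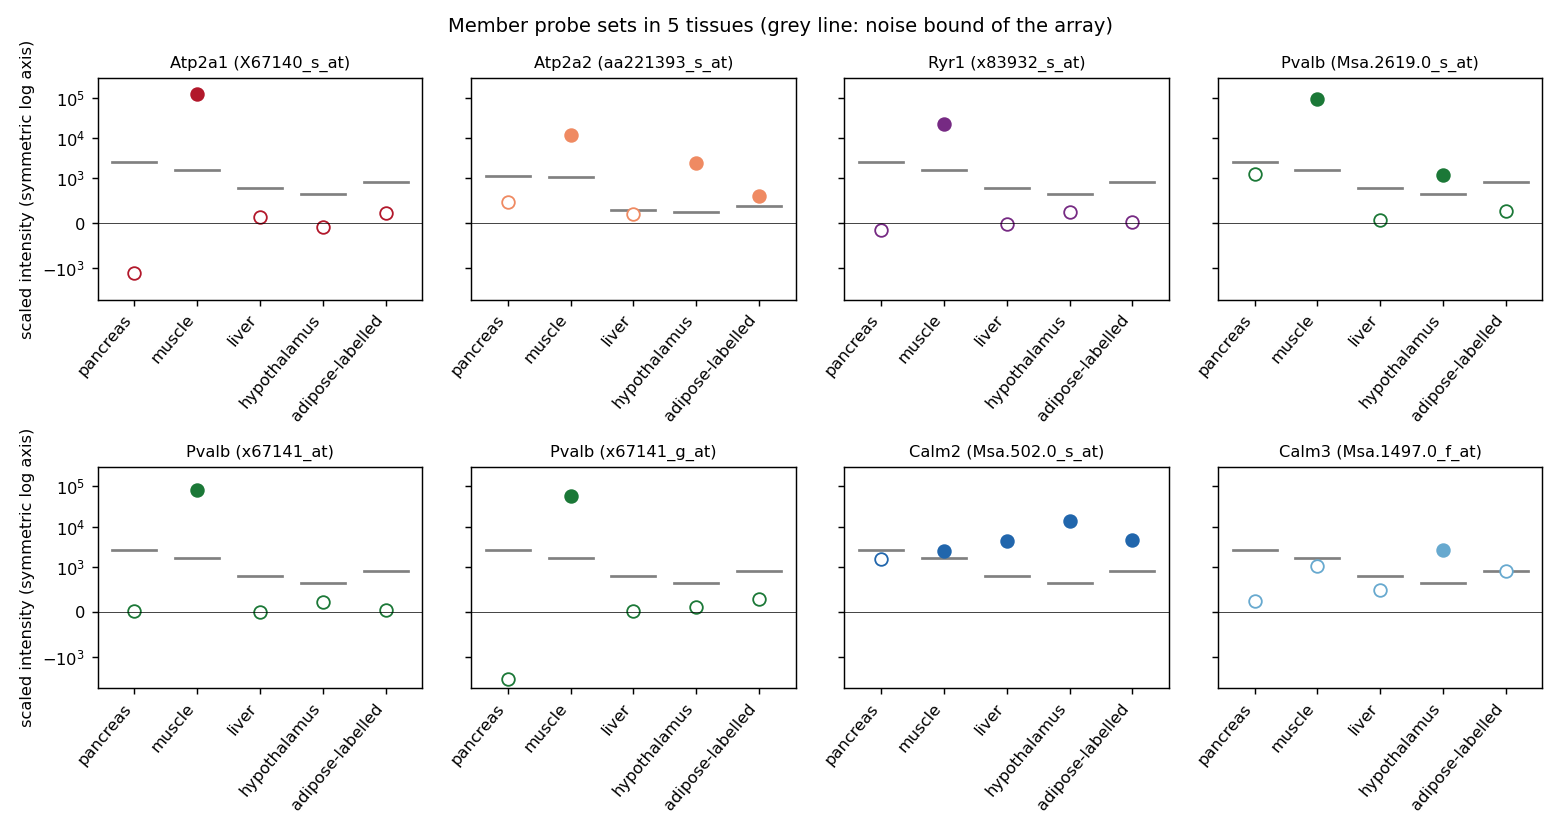
Scaled intensity (log axis, linear near 0) of the 8 member probe sets in the 5 tissues, 1 array per point; filled points lie above the array's noise bound (grey line), open points do not. Atp2a1, Ryr1 and Pvalb stand out in muscle, Atp2a2 is above its bound in 3 tissues, and Calm2 and Calm3 are highest in hypothalamus.

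Calcium release was represented by Ryr1, the release channel of skeletal muscle (probe set x83932_s_at). It read 22240 in muscle, 250.1 in hypothalamus, 39.2 in the adipose-labelled sample, -24.9 in liver and -155 in pancreas. Muscle alone lay above its noise bound, so the other 4 tissues have no order among themselves. The fold was at least 8.53 over the highest other tissue, and the noisy pancreas array set this limit. Against single tissues it was at least 34.2 over hypothalamus, at least 28.1 over liver and at least 24.2 over the adipose-labelled sample.

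Calcium uptake was represented by 2 pumps with different patterns. Atp2a1, the pump of fast fibres (X67140_s_at), read 126228 in muscle, 226 in the adipose-labelled sample, 151 in liver, -75.4 in hypothalamus and -1287 in pancreas. It was above noise in muscle alone. The fold was at least 194 over hypothalamus, at least 159 over liver, at least 137 over the adipose-labelled sample and at least 48.4 over pancreas, where the bound is highest.

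Atp2a2, the pump of slow fibres and heart that other cell types also carry in their endoplasmic reticulum (aa221393_s_at), read 11834 in muscle, 2350 in hypothalamus, 605 in the adipose-labelled sample, 483 in pancreas and 217 in liver. It was above noise in muscle, hypothalamus and the adipose-labelled sample, and the values of pancreas and liver were under their bounds. Muscle was 5.04-fold above hypothalamus and 19.6-fold above the adipose-labelled sample, and hypothalamus was 3.89-fold above the adipose-labelled sample. Muscle was at least 40.1-fold above liver and at least 10.1-fold above pancreas. The muscle call of Atp2a2 was the nearest to the threshold of the 4 and was lost, at 3.72-fold over hypothalamus, when arrays were scaled by their hybridisation spikes. Slow fibre and heart genes bear on this pump. In muscle 4 of 4 measured slow fibre genes were called, with a summed intensity of 91063, against sums from -868 to 597 in the other tissues. Myl2 among them was read by a family-design probe set. Of 6 heart genes, Myh6 and Actc1, both on family-design probe sets, were called for muscle, at 10924 and 20970, while Nppb, Tnni3, Tnnt2 and Myl4 were not above noise there. The part of such fibres in the Atp2a2 value was not tested.

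The cytosolic buffer Pvalb was read by 3 probe sets, and all were called for muscle. The one with the highest mean read 91876 in muscle, 1316 in pancreas, 1251 in hypothalamus, 274 in the adipose-labelled sample and 76.8 in liver. The others, which share a target by their names (x67141_at and x67141_g_at), read 83074 and 58067 in muscle, 219 and 118 in hypothalamus, and 32.1 and -3598 in pancreas. In liver they read 3.99 and 26.9, and in the adipose-labelled sample 45.2 and 284. In muscle the 3 probe sets ranged from 58067 to 91876 and lay far above every other value. In hypothalamus only the first was above the bound of 649.5, and it put muscle 73.5-fold higher, while the others gave at least 128-fold and at least 89.4-fold. The probe sets thus did not settle whether hypothalamus held a signal of Pvalb. Over pancreas the folds were at least 35.2, at least 31.9 and at least 22.3.

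The calcium sensors ran the other way. Calm2 read 13843 in hypothalamus, 4784 in the adipose-labelled sample, 4343 in liver, 2490 in muscle and 1551 in pancreas. Every tissue except pancreas was above noise, the widest presence of any member. Hypothalamus was 5.56-fold above muscle, 3.19-fold above liver and 2.89-fold above the adipose-labelled sample, and at least 5.31-fold above pancreas. Liver was 1.74-fold and the adipose-labelled sample 1.92-fold above muscle.

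Calm3, whose probe set is of family design and may also bind messages of related genes, read 2622 in hypothalamus, 1097 in muscle, 912 in the adipose-labelled sample, 483 in liver and 255 in pancreas. Only hypothalamus was above noise. It was at least 1.60-fold above muscle, at least 3.31-fold above liver, at least 2.86-fold above the adipose-labelled sample and at least 1.01-fold above pancreas. Calm2 and Calm3 therefore shared hypothalamus as their highest tissue, and for Calm3 the order of the other 4 was not resolved.

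In the comparison of muscle with hypothalamus alone, 4 of 6 members were at least 4-fold higher in muscle, against 8% of the named genes, and 1, Calm2, was at least 4-fold lower, against 6.94%. The log2 difference, muscle minus hypothalamus with the floor applied, was 10.01 for Atp2a1, 6.47 for Ryr1, 6.20 for Pvalb, 2.33 for Atp2a2, -1.26 for Calm3 and -2.48 for Calm2. The median over the 6 was 4.27, and over all named genes 0.00, with 1756 of them at the floor in both tissues. An error between animals cannot be had. As a technical guide, 12 probe sets on both chips, 2 of them not controls with the maker's AFFX prefix, were above noise in muscle and hypothalamus on each, and their log2 difference had an SD of 0.21 between chips and differed by at most 0.59. The differences of Atp2a2 and Calm2, which were measured on both sides, were larger than this. Between probe sets of the same gene on 1 chip the agreement was looser: over 58 such genes the range of the log2 difference had a median of 0.51, and a 90th percentile of 1.77. The log2 difference of Calm2 was -0.80 for muscle minus liver and -0.94 for muscle minus the adipose-labelled sample, both smaller in size than the largest difference between chips for the same pair of tissues, 0.96 and 1.13.

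Over all probe sets with the floor applied, the median log2 difference of muscle minus hypothalamus was 0.00 under each of the 5 scalings. Among the 1475 probe sets above noise in both tissues it was 0.72, and 0.46 with 75th percentile scaling, 0.19 with scaling by spikes and, over 1372 probe sets, 0.069 with quantile normalization. The muscle bound is the higher one on both chips, so this choice of probe sets itself favours those high in muscle. The differences of Atp2a2, Pvalb and Calm2 under the same scalings ran from 1.89 to 2.33, from 5.25 to 6.20 and from -3.68 to -2.48. The directions of the 6 members held under every scaling and floor tried.

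**Figure D2:**
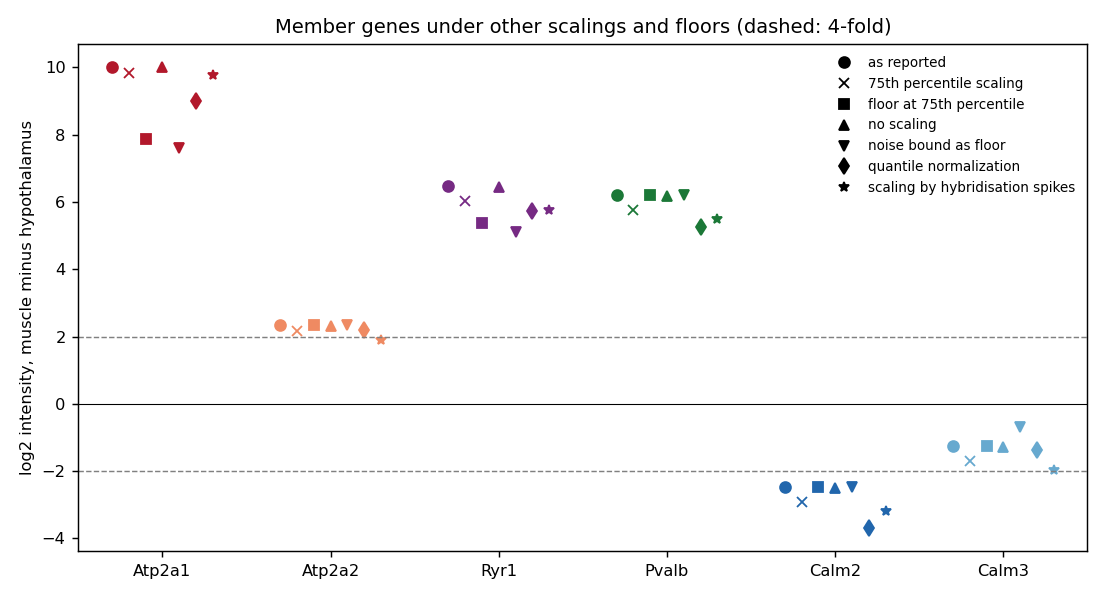
Log2 intensity in muscle minus hypothalamus for the 6 member genes, each point 1 scaling or floor and dashed lines at 4-fold. Atp2a1, Ryr1 and Pvalb stay above 4-fold under all 7, Atp2a2 runs from 1.89 to 2.33, and Calm2 and Calm3 are below 0 under all 7.

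Against the other tissues 5 of 6 members were at least 4-fold higher in muscle than in pancreas (7.07% of named genes), 4 of 6 higher than in liver (8.59%) and 4 of 6 higher than in the adipose-labelled sample (5.2%). The 4 were those called for muscle. The fifth over pancreas was Calm3, whose values in muscle and pancreas, 1097 and 255, were both under the noise bounds. With either raised floor the count over pancreas was 4, and with scaling by spikes it was 6. That scaling moved the median log2 difference of muscle minus pancreas, over 765 probe sets above noise in all 5 tissues, from -0.21 to 1.73.

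Other isoforms of the members' families were read as follows. Ryr2, the release channel of heart and brain, read 1462 in hypothalamus, above its bound, and -162 in muscle, -240 in pancreas, -63.8 in liver and -77.3 in the adipose-labelled sample. The muscle bound of 1640 would hide a signal of that size. Atp2a3, a pump of cells outside muscle, Ryr3 and Casq2 were named after their values were seen. One Atp2a3 probe set read 4802 in pancreas, above noise, and -344 in muscle, while the 2 others were below noise in all 5 tissues. Ryr3, a further release channel, read 1873 in pancreas and 1095 in muscle, under their bounds, and 1033 in liver and 1003 in hypothalamus, above theirs. Its other probe set was above noise in hypothalamus alone, at 325, and read -19.0 in liver. Casq2, the calsequestrin of heart and slow fibres, read 638 in muscle and was not above noise in any tissue.

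**Figure D3:**
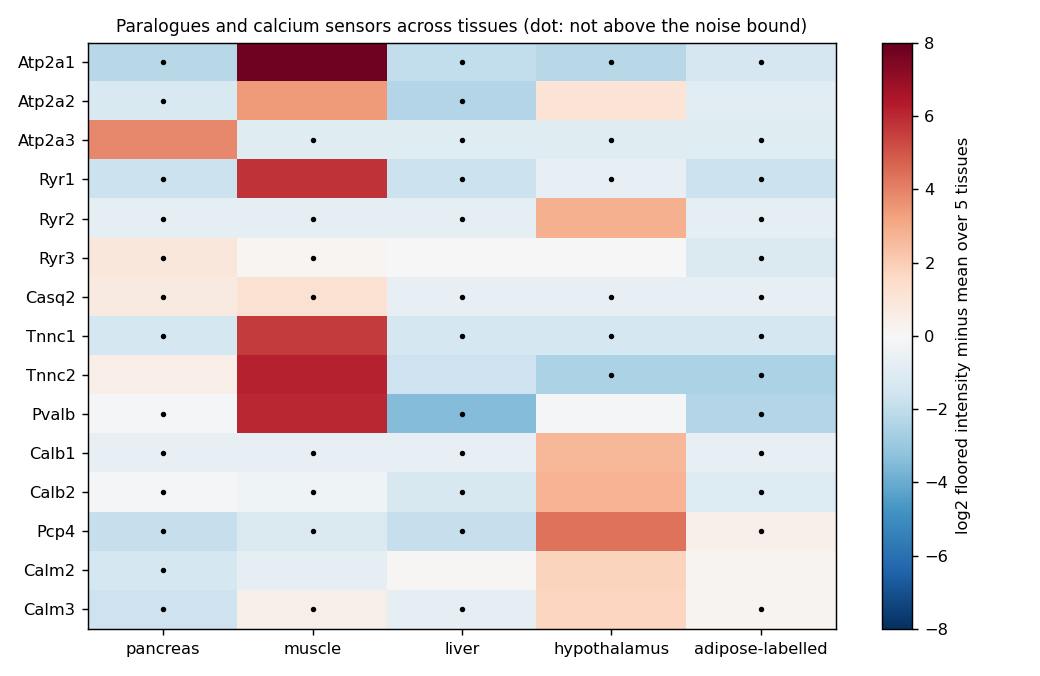
Log2 floored intensity minus its mean over the 5 tissues (colour, red higher) for members, their isoforms and other calcium-binding proteins, with a dot where the value is not above the noise bound. Atp2a1, Ryr1, Pvalb and the troponins C are red in muscle, Atp2a3 in pancreas, and Ryr2, the calbindins, Pcp4 and the calmodulins in hypothalamus.

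Other genes of calcium handling were taken from 5 lists by role, chosen from textbook knowledge but with earlier results of these data known. The shares called are therefore a description. Of 103 genes outside the members 51 were measured, 31 of these were above noise in at least 1 tissue, 5 were called for muscle and 8 for hypothalamus, against 1.65% and 2.33% of named genes. Of the 51, 23 were higher in muscle than in hypothalamus, 15 lower and 13 at the floor in both. Over the 6137 named genes these counts were 2589, 1792 and 1756, so the split of the 51 is not read as a lean to muscle. The median log2 difference of the 51, like that of all named genes, was 0.00. Ties at the floor set both medians, so their equality carries no comparison. Cacna1s, the voltage sensor that opens Ryr1, read 3748 in muscle and at most 355 elsewhere, at least 3.21-fold higher. Tnnc2, the troponin C of fast fibres, read 71596 in muscle and 1414 in pancreas, 50.6-fold higher, and Tnnc1, that of slow fibres and heart, read 21935, at least 18.8-fold higher. Phka1 and Phkg1, subunits of phosphorylase kinase, in which calmodulin is itself a subunit, read 5315 and 1952 in muscle, at least 2.04-fold and at least 1.67-fold higher.

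Pcp4, a small protein that binds calmodulin, read 8749 in hypothalamus and 198 in muscle, at least 3.35-fold above the highest other tissue. Calb2, the neuronal buffer calretinin, read 10600 in hypothalamus, 1501 in pancreas and 1224 in muscle, at least 4.06-fold higher. Camk2b, a kinase that calmodulin switches on, read 4070, at least 1.56-fold higher, and Rcn2, a calcium-binding protein of the endoplasmic reticulum, 1732, at least 1.48-fold higher. Ryr2 was also called, at a value under the bounds of muscle and pancreas, so no excess over these 2 tissues was shown. Calb1, Vsnl1 and S100b, the remaining calls, read 1793, 1909 and 1934 in hypothalamus and were named after their values were seen. They were at least 1.54-fold, 1.64-fold and 1.66-fold above the highest other tissue. Most of the hypothalamus calls rest on the floor: with the noise bound as floor the count was 1, against 8.

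By list, members included, release had 10 of 20 genes measured, with 2 called for muscle, 1 for hypothalamus and a median of 0.64. Uptake and lumenal store had 10 of 16 measured, with 2 and 1 called and a median of 0.66. Cytosolic buffers and calcium sensors had 15 of 24 measured, with 3 and 5 called and a median of -1.26. That median is the value of Calm3, a member not above noise in muscle, and is not read as a lean to hypothalamus. Calmodulin effectors had 16 of 30 measured, with 2 and 1 called and a median of 0.00, set by 6 genes at the floor in both tissues. In the list of plasma membrane and mitochondria 6 of 20 were measured, none was above noise in any tissue and none was called for muscle or hypothalamus. Its median was 0.63 all the same. Positive medians of this size, as for release and uptake, are therefore not read as a lean to muscle.

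**Figure D4:**
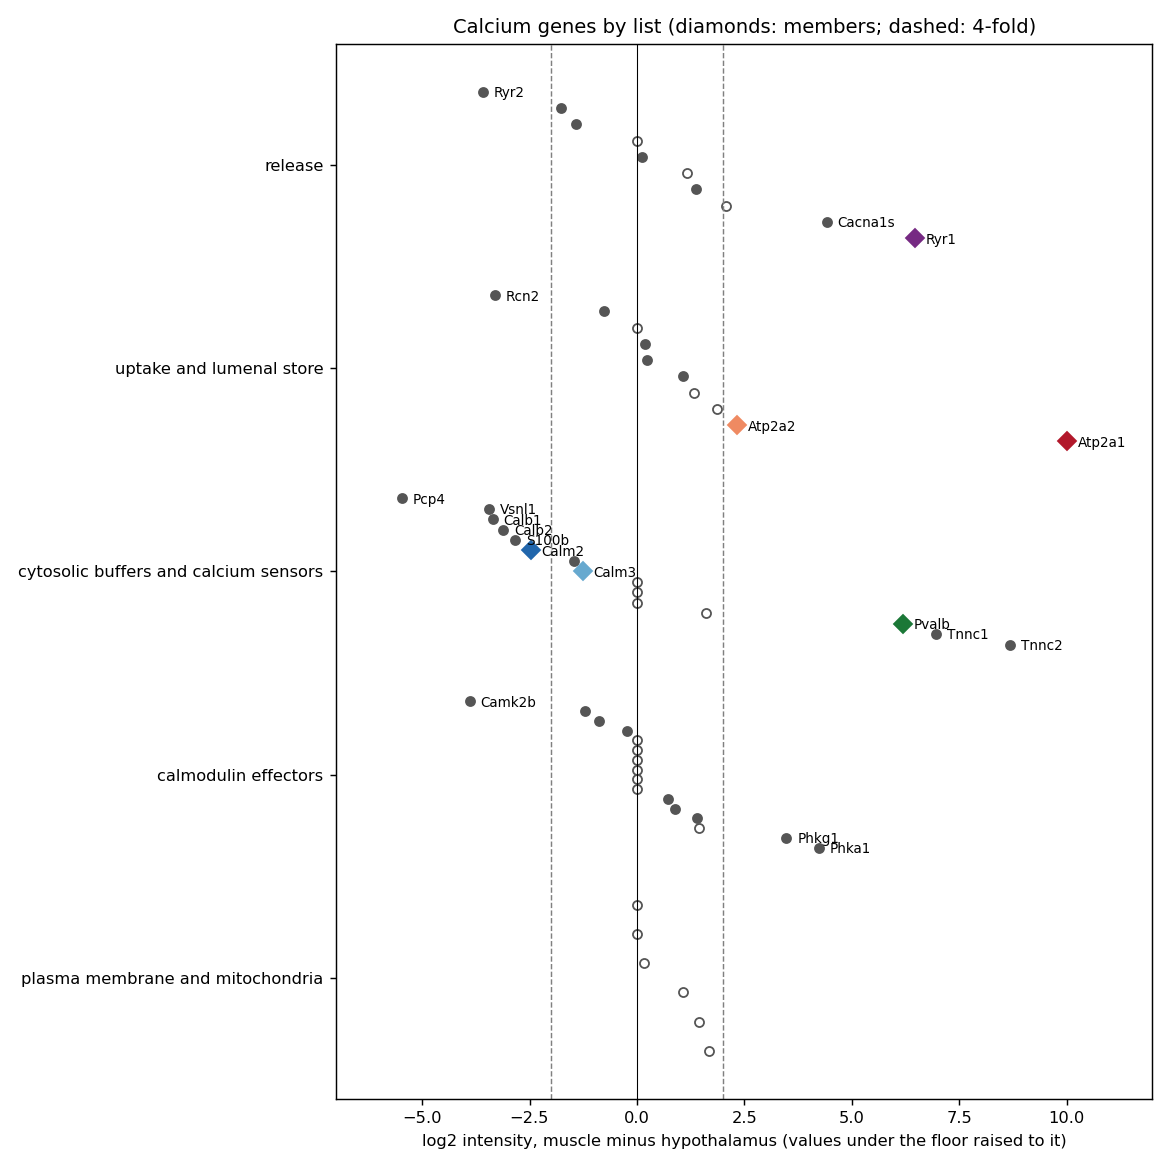
Log2 intensity in muscle minus hypothalamus, with low values raised to the floor, for the 57 measured calcium genes by list; diamonds are the members, open symbols genes not above noise in either tissue, and dashed lines 4-fold. Ryr1, Atp2a1, Atp2a2, Pvalb, Cacna1s, the troponins C, Phka1 and Phkg1 lie to the right. Pcp4, Camk2b, Ryr2, Rcn2, the calbindins and Calm2 lie to the left.

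The genes with the pattern most like each member were named by the root mean square difference over the 5 tissues of floored log2 values centred on their mean, among 3469 genes above noise in at least 1 tissue. Values at the floor make genes of muscle alone look alike in the other 4 tissues. For Atp2a1 the nearest were Eno3, the muscle enolase (0.34), and the fast troponins Tnnt3 (0.50) and Tnni2 (0.61). For Ryr1 they were Myl2, the slow and heart myosin light chain (0.40), Tnnc1 (0.41) and Cox6a2, a muscle subunit of cytochrome oxidase (0.42). For Pvalb they were Myh4, a fast myosin heavy chain (0.77), Myl3, a slow myosin light chain (1.08), and Ryr1 (1.15). Atp2a2 was nearest to Pkm, a pyruvate kinase (0.64), Cdh3, a cadherin (0.74), and Slc25a4, the carrier of ATP across the mitochondrial membrane (0.79). Calm2 was nearest to Slirp (0.16), Hnrnpu (0.17) and Puf60 (0.22), which encode RNA-binding proteins. Calm3 was nearest to 2410002F23Rik (0.089), the tubulin Tubb4b (0.25) and Herc1 (0.25). In muscle Slirp, Hnrnpu, Puf60, 2410002F23Rik and Herc1 were under the chip A noise bound, and Calm3 under that of chip B. The small differences of these pairs thus rest partly on unresolved values. Tnni2, Myl2, Cox6a2, Pkm, Slc25a4 and Tubb4b were read by family-design probe sets, which may also bind messages of related genes.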

How the data were processed

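The deposited values are Affymetrix intensities on a linear scale in whole numbers, made from biotin-labelled cRNA of 10 µg total RNA per the labels. Some are below 0 and all arrays have 2% trimmed means near 501. The software, background step and scaling behind them are, for both chips, not given in the sources used here. Genes were named by the platform annotation and renamed through a RefSeq table of GRCm38.p6, which held 5551 of 5560 single-gene probe sets of chip A and 1993 of 2001 of chip B.

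From the deposited intensities, 61 controls per chip were left out, arrays were scaled to a common 2% trimmed mean within a chip, the median of the array medians was set as floor, and log2 differences were taken (Python 3.11.15, pandas 2.3.3, numpy 2.4.6, scipy 1.17.1). The calls were checked on simulated data of positive values, with changes planted in bright probe sets only. That check does not bear on calls that rest on the floor. A gene with several probe sets was represented by the one ranked highest on its chip by mean log2 intensity. Named were all members, from each calcium list up to 3 genes called for muscle and 2 for hypothalamus by fold, the 3 genes most like each member, and the leading marker genes, with exceptions stated; other marker genes were named after their values were seen. Members and lists were chosen with earlier results of these data known. There were 11 alternatives planned and 2 chosen after seeing the data: scaling by spikes, and leaving out family designs.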

Additional observations from a re-analysis of the deposited data

How the results depend on the processing

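No member difference between muscle and hypothalamus changed direction under those of the 11 planned and 2 added alternatives in which the gene was measured. Without relaxed designs only Pvalb was measured, and without family designs Calm3 was not. The range was 7.60 to 10.01 for Atp2a1, 5.10 to 6.47 for Ryr1, 5.25 to 6.20 for Pvalb by its first probe set and 8.56 by the one that stood in without relaxed designs, 1.89 to 2.33 for Atp2a2, -3.68 to -2.48 for Calm2 and -1.97 to -0.68 for Calm3, where Atp2a1 and Ryr1 depend on the floor because hypothalamus lies at or near it. The count of members called for muscle was 4 of 6 except for 4 of 5 without family designs, 3 with an 8-fold threshold, 3 with scaling by spikes and 1 without relaxed designs, a setting that kept 1 member gene (Pvalb) and 11 other calcium genes, so its counts of 1 member gene and 1 probe set called, 1 member higher in muscle than each other tissue, 0 higher in hypothalamus, 1 other calcium gene called for muscle or higher there and 0 for hypothalamus follow from fewer genes tested. Member genes higher in hypothalamus than muscle were 2 with a 2-fold threshold and 0 with an 8-fold threshold, against 1. With the floor at the 75th percentile, calcium genes outside the members called for hypothalamus were 3 and those higher there than in muscle 3, against 8 and 8. With the noise bound as floor they were 1 and 2, while 2 were called for muscle, against 5, and 18 were higher in muscle than hypothalamus, against 6, since the muscle bound is above that of hypothalamus. With a 2-fold threshold 13 were called for muscle and 17 were higher there than in hypothalamus, and with an 8-fold threshold 4 were called for hypothalamus. Signal over background limits low values: 11.2% of chip B probe sets were above noise in muscle and 20.9% in hypothalamus.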

Other observations

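Some calcium genes outside the members, named after their values were seen, read highest in other tissues or gave readings that differed by probe set. Calr, calreticulin, a calcium-binding chaperone of the endoplasmic reticulum, read 15083 in pancreas and between 3642 and 4424 in the other 4 tissues, while its other probe set was below noise in all 5. Fkbp1a, a protein that binds the ryanodine receptor and is made in most cells, read 8046 in the adipose-labelled sample, 7324 in hypothalamus, 3176 in pancreas, 2754 in muscle and 1520 in liver, and its other probe set, also of family design, read 5284, 6914, 2360 (under its bound), 2798 and 1434. Bin1, a membrane-bending protein of muscle and brain, read 5727 in muscle and 2194 in hypothalamus on chip A, but 1709 and 1496 on chip B, where pancreas read 2628. Asph, whose locus also gives a protein of the release complex, was called for the adipose-labelled sample at 777 against 151 in muscle. The value of 777 lay under the chip A bounds of muscle (1065) and pancreas (1166), so its order against these tissues was not resolved.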
